A study of Mus musculus with 160 samples.

Results

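Dock2 is an atypical guanine nucleotide exchange factor of leukocytes. It binds Elmo1 and switches on the small GTPase Rac, which drives the actin rearrangements that lymphocytes need to migrate along chemokine gradients, and B cells reach the follicles of the gut by following such gradients. Follicular B cells carry the complement receptor Cr2 (CD21), and in the colon the descendants of activated B cells are mostly plasma cells that secrete IgA. The comparison described here is the distal colon of mice homozygous for the Dock2 knockout against that of wild-type littermates, with the degree of inflammation in each sample held constant. Its members were all samples labelled with the DOCK2 mouse line, 42 of the 160 samples in the series, of which 18 carried the genotype HO (homozygous knockout) and 24 the genotype WT.

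Both groups were on the C57BL6/J strain, with 8 females and 10 males among the knockouts and 12 of each sex among the wild types. The line was an existing constitutive knockout, re-derived and bred heterozygote by heterozygote, so that genotypes shared litters and cages. In this line the protocol gave 3% dextran sulfate sodium (DSS), a polymer that injures the colonic epithelium, in drinking water for 5 days and then plain water for 5 days, and tissue was taken on day 10. Signatures were made for treated and for baseline animals, but the labels do not tell which mice drank DSS. The study's methods describe young adult mice in age- and sex-matched groups, and the exact lesion in Dock2 is not given in the sources used here. Because the labels do not give the DSS treatment of each mouse, each sample was given an inflammation score. This was the mean log2(CPM + 1) of the neutrophil and acute-response genes S100a8, S100a9, Il1b and Cxcl2. CPM is a gene's count scaled to the library's total count on genes. The score, sex, and the log2(CPM + 1) of Krt1 (a keratin of skin) and Acta1 (skeletal muscle actin) were covariates of a quasi-likelihood test in edgeR. Log2 fold changes below are knockout minus wild type under these covariates, ± 1 standard error (SE), and a gene was called at a Benjamini-Hochberg adjusted p below 0.05.

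The libraries held 9863590 to 17227216 counts on genes, so that 3 counts corresponded to 0.174 to 0.304 CPM, and the sex markers matched the label in 42 of 42. Genes of colonic absorptive cells were present throughout, with summed levels of 10500 to 27600 CPM in the knockouts and 15900 to 26700 CPM in the wild types. Some libraries stood apart. Krt1 reached 530.0 to 2660 CPM in 5 libraries (knockout replicate 13 and wild-type replicates 7, 8, 9 and 15) and at most 2.96 CPM in the other 37. Wild-type replicate 13 had both the fewest counts and the highest score, 8.60. In knockout replicate 3 the summed level of 14 pancreatic acinar genes was 825 CPM, whereas it lay between 3.65 and 12.7 CPM in all other libraries. In 3 female libraries several genes lay at the level of the other genotype. Knockout replicate 16 had 18.2 CPM of Cr2, 9.54 of Irf4, 445 of Igha, 0.915 of Ang4 and 29.4 of Dock2. Knockout replicate 18 had 23.2 CPM of Cr2, 7.89 of Irf4, 76.1 of Igha, 2.15 of Ang4 and 41.5 of Dock2, the last above the wild-type median of 35.7. Wild-type replicate 24 had 3.98 CPM of Cr2, 3.45 of Irf4, 6.97 of Igha, 6.39 of Ang4 and 24.5 of Dock2, the lowest Dock2 level among wild-type females. Whether these 3 animals carried the genotype on their label could not be told from the files, and they are used here as labelled. Leaving them out 1 at a time gave 68, 63 and 91 called genes in the comparison below, against 52 with all libraries. Dock2, Ang4, Cr2 and Irf4 were called in each of these fits. The 3 libraries were picked by the levels of these same genes, so these fits cannot serve as a check of the calls.

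The targeted transcript was reduced but not lost. Its level was 12.6 to 45.4 CPM in the knockouts (median 22.4) and 15.2 to 70.4 CPM in the wild types (median 35.7). The level was below the wild-type median in 16 of 18 knockouts and below every wild type in 3, so the genotypes overlapped and the transcript cannot by itself place a sample in its group. On the log2(CPM + 1) scale the difference was -0.64 (p = 0.00033, two-sided permutation test with 100000 resamples), with p = 0.00036 when genotypes were shuffled within sex. It was -0.71 in females (exact permutation test, p = 0.00471) and -0.58 in males (permutation test, p = 0.0302). In the adjusted fit Dock2 fell by 0.62 ± 0.12 on the log2 scale (edgeR quasi-likelihood test, adjusted p = 0.0155). It stayed called whichever library was left out, but at a similar estimate the call was lost with sex alone (-0.62; edgeR, adjusted p = 0.210), without the Krt1 and Acta1 terms (-0.62; 0.0625), in males alone (-0.56; 0.974) and in females alone (-0.72; 0.151). The files give 1 count per gene, so which exons the remaining reads came from could not be seen. Dock2 was also higher at a higher score, by 0.21 log2 per unit, and B-cell genes were lower in the knockouts. How much of the difference came from the allele and how much from fewer Dock2-expressing cells cannot be told apart, since in bulk tissue fewer cells of a type and less RNA per cell give the same reading.

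No difference of the covariates between genotypes passed the threshold, which does not show that they were equal. The score was 1.97 ± 1.66 in the knockouts (SD, n = 18) and 2.10 ± 1.98 in the wild types (SD, n = 24), a difference of -0.13 (permutation test, p = 0.830). Krt1 differed by -0.81 and Acta1 by -0.91 on the log2(CPM + 1) scale (permutation tests, p = 0.474 and 0.186). Adjusted over the 3 measures, the p-values were 0.830, 0.711 and 0.558. In males the Acta1 difference was -2.22 (permutation test, p = 0.053), with wild-type replicates 7, 8 and 9 as the highest males.

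Of 17648 genes tested, 52 were called (0.295%), 3 higher (0.017%) and 49 lower (0.278%) in the knockouts. Of the 52, 30 belonged to the lists of B-cell identity, plasma cell, immunoglobulin constant or immunoglobulin variable genes. This tally is a description, since 10 of the 30 are variable segments, a list added after the values were seen, and the other lists were written with earlier results known. The genes that fell did so by 0.33 to 3.53 on the log2 scale, with a median of -0.95 against 0.00 for all genes tested. No called gene separated the genotypes completely. Every called gene that could be fitted in 1 sex alone had the same sign there, 51 of 51 in females and 47 of 47 in males. The genes were picked in the fit of these same animals, so this agreement was largely built in and is no check. At an unadjusted p below 0.05 there were 454 genes higher (2.57%) and 518 lower (2.94%). The number called depended on single libraries. It was 15 without wild-type replicate 1, 17 without knockout replicate 11, 28 without wild-type replicate 6 or 20, 29 without wild-type replicate 11, 31 without knockout replicate 15, 32 without knockout replicate 17, 33 without knockout replicate 2 and 34 without knockout replicate 1, 12 or 14, and it was 82 without wild-type replicate 14, 89 without knockout replicate 13 and 91 without wild-type replicate 24. Without wild-type replicate 1, 37 of the 52 calls were lost, and without knockout replicate 11, 36 were lost. In all 42 fits that left out a library 14 genes stayed called, among them Ang4, Cr2, Dock2, Bank1, Fcer2a, Blk and Ighg2b.

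The adjustment mattered to the number of calls. With sex as the only covariate 6 genes were called (0.034%, of which 5 lower, 0.0283%, and 1 higher, 0.00567%), all of them among the 52. When the 5 libraries with high Krt1 were left out and the Krt1 and Acta1 terms dropped, 103 genes were called (0.588%), 96 lower (0.548%) and 7 higher (0.0399%), 51 of the 52 included, and when these terms were dropped with the libraries kept the number was 7. The direction of the largest changes did not depend on this: Ang4 was at 2.59 with sex alone and 2.63 without the 5 libraries, and Cr2 at -1.53 and -1.65.

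**Figure D1:**
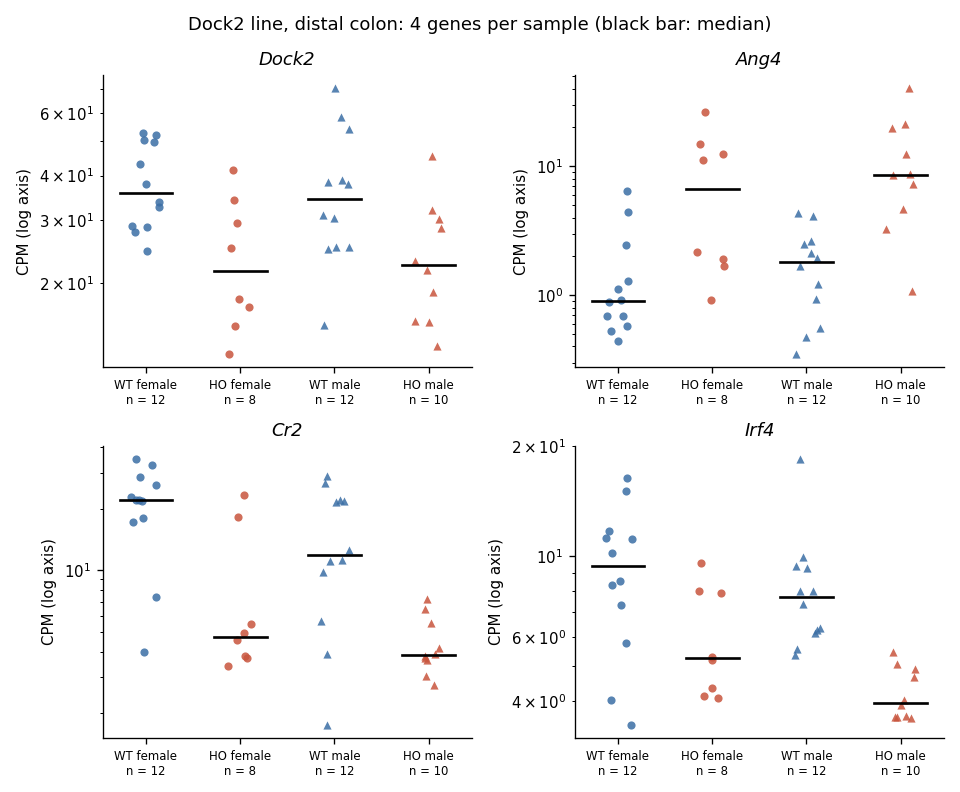
CPM of Dock2, Ang4, Cr2 and Irf4 in each of the 42 samples on log axes, by genotype (HO, knockout; WT, wild type) and sex, with a black bar at the median of each sex and genotype. Over both sexes the knockout medians are lower for Dock2 (22.4 against 35.7 CPM), Cr2 (4.04 against 21.6) and Irf4 (4.52 against 8.18) and higher for Ang4 (8.63 against 1.17), and the genotypes overlap in all 4 panels.

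Ang4 rose most. It encodes a secreted ribonuclease of the angiogenin family that kills bacteria and is made by Paneth and goblet-like cells of the gut. Its level was 0.915 to 40.4 CPM in the knockouts (median 8.63) and 0.349 to 6.39 CPM in the wild types (median 1.17), and 11 of 18 knockouts exceeded the highest wild type. The adjusted change was 2.48 ± 0.40 on the log2 scale (edgeR, adjusted p = 0.00154), 2.76 in females alone and 2.80 in males alone (edgeR, adjusted p = 0.118 and 0.0833, so that neither sex passed by itself). Low knockouts were replicate 16 (0.915 CPM), replicate 6 (1.08 CPM), replicate 15 (1.68 CPM) and replicate 13 (1.92 CPM), while the highest wild type was replicate 24 (6.39 CPM). The gene is 1 of a group of near-identical angiogenin copies, so reads could have been shared among them.

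Grhl3 also rose. This gene, a transcription factor of epithelial barriers that is abundant in epidermis, was at 6.79 to 84.7 CPM in the knockouts (median 8.75) and 6.39 to 35.0 CPM in the wild types (median 7.40). Its highest values came from libraries with high Krt1, 84.7 CPM in knockout replicate 13 and 35.0 CPM in wild-type replicate 15. The adjusted change was 0.36 ± 0.074 (edgeR, adjusted p = 0.0194), and it was 0.30 (edgeR, adjusted p = 0.0392) without the 5 high-Krt1 libraries and terms. With sex as the only covariate it was 0.31 ± 0.291 and Grhl3 was not called. Leaving out knockout replicate 11 or 13 or wild-type replicate 15 ended the call, with adjusted p up to 0.0603 in edgeR.

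Among the B-cell identity genes, 14 of 32 tested members fell (43.8%, against 0.278% of all genes tested) and none rose. The list's median change was -0.78 against 0.00 for all genes tested. Cr2, which lets B cells sense complement-coated antigen and is also made by follicular dendritic cells, was at 2.73 to 23.2 CPM in the knockouts (median 4.04) and 1.75 to 35.0 CPM in the wild types (median 21.6). It was below the wild-type median in 17 of 18 knockouts, and the lowest wild types were replicates 7, 8, 9 and 15, with high Krt1, and replicate 24. Cr2 fell by 1.51 ± 0.24 on the log2 scale (edgeR, adjusted p = 0.00128). Males alone gave -1.71 and females alone -1.37 (edgeR, adjusted p = 0.219 in females), and the interaction of genotype with sex had an unadjusted p of 0.242 in edgeR.

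Other called members of the B-cell identity list fell as Cr2 did. Not every member did so: Blnk was at -0.02, Cd74 at 0.03 and Ly86 at 0.01, and none of these was called. Which cells the reads of these genes came from cannot be seen in bulk tissue. Bank1, an adaptor of B-cell receptor signalling, fell by 0.84 ± 0.165 (edgeR, adjusted p = 0.0155), from a median of 10.8 CPM in the wild types (2.39 to 20.6) to 5.55 CPM in the knockouts (2.89 to 13.8). Fcer2a, the low-affinity IgE receptor CD23 of follicular B cells, fell by 0.99 ± 0.197 (edgeR, adjusted p = 0.0159). All 18 knockouts lay below its wild-type median of 7.49 CPM, and the knockout values ran from 1.77 to 6.20 CPM. Blk, a Src-family kinase of B cells, fell by 1.17 ± 0.234 (edgeR, adjusted p = 0.0165) and was likewise below the wild-type median of 4.01 CPM in all 18 knockouts (0.301 to 3.98 CPM). Ikzf3, a zinc-finger factor of mature B cells, fell by 0.87 ± 0.179 (edgeR, adjusted p = 0.0193), a call that was lost without wild-type replicate 1 or knockout replicate 11. Tnfrsf13c, the receptor for the survival factor BAFF, fell by 1.23 ± 0.254 (edgeR, adjusted p = 0.0194).

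The remaining called members of the list were Cxcr5, Pou2af1, H2-Ob, H2-DMb2, Cd72, Cd22, Fcmr and Cd79a, with changes between -0.45 and -0.96. Several defining markers stayed on the other side of the threshold. Ms4a1 (CD20) was at 1.74 to 10.2 CPM in the knockouts (median 3.53) and 0.815 to 15.4 CPM in the wild types (median 8.25), with a change of -0.88 ± 0.21 (edgeR, adjusted p = 0.0515). Pax5 was at -0.93 (edgeR, adjusted p = 0.108). Without the high-Krt1 libraries and terms, 24 members of the list were called, Ms4a1 (-0.98; edgeR, adjusted p = 0.0123) and Pax5 among them. The list was written with earlier results of these data in view, so its count is a description.

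**Figure D2:**
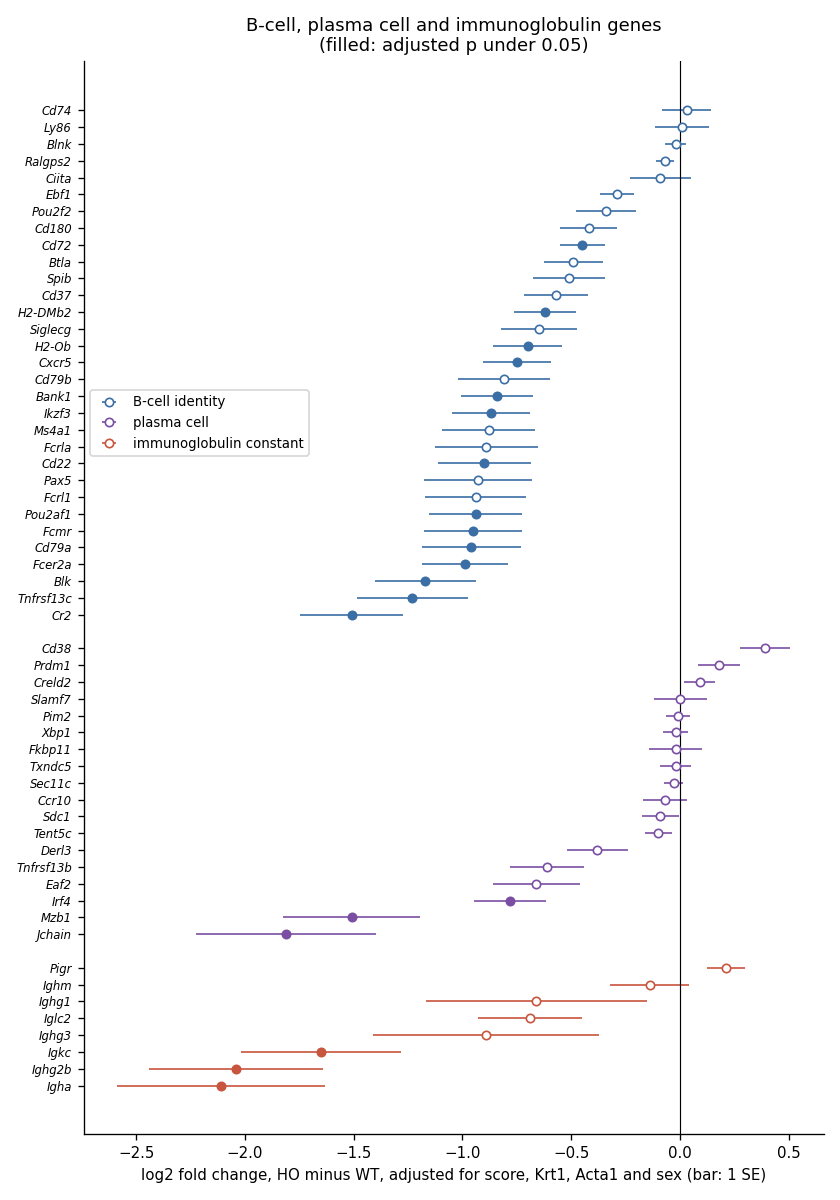
Log2 fold change (knockout minus wild type, adjusted for score, Krt1, Acta1 and sex; horizontal bars, 1 SE) of tested members of 3 lists, with filled points for genes called at an adjusted p below 0.05. Of the 31 B-cell identity genes drawn 29 lie below 0, whereas most plasma cell genes lie near 0 and Jchain, Mzb1 and Irf4 lie furthest below it.

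The plasma cell list divided. Of 18 tested, 3 fell (16.7%, against 0.278% of all genes tested), none rose, and the median was -0.05. Irf4, a transcription factor needed for plasma cell formation, was at 3.60 to 9.54 CPM in the knockouts (median 4.52) and 3.45 to 18.4 CPM in the wild types (median 8.18). It fell by 0.78 ± 0.165 (edgeR, adjusted p = 0.0224), and 17 of 18 knockouts lay below the wild-type median. Among males every knockout but 1 was at or below 5.05 CPM, while the wild-type males began at 5.36 CPM. The call was lost without wild-type replicate 1 (-0.67; edgeR, adjusted p = 0.0523) or knockout replicate 11 (-0.74; edgeR, adjusted p = 0.0603). Mzb1, a chaperone for IgM and IgA assembly, fell by 1.51 ± 0.315 (edgeR, adjusted p = 0.0206), and Jchain, which joins IgA into dimers, fell by 1.81 ± 0.413 (edgeR, adjusted p = 0.0356). Xbp1 was at -0.02, Sdc1 at -0.09 and Prdm1 at 0.18, and none of these was called. Xbp1 was at 130.0 to 262 CPM over all samples, whereas Mzb1 was at 0.24 to 3.20 CPM in the knockouts and 0.233 to 10.9 CPM in the wild types. Which cells the Xbp1, Sdc1 and Prdm1 reads came from cannot be seen in bulk tissue. Their levels therefore do not tell whether plasma cells were spared.

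The antibody transcripts gave the largest falls. Igha, the constant region of IgA, was at 5.03 to 445 CPM in the knockouts (median 28.6) and 2.36 to 1040 CPM in the wild types (median 141). The change was -2.11 ± 0.477 (edgeR, adjusted p = 0.0343), although both groups spanned more than an order of magnitude. The highest knockout was replicate 16 and the lowest wild types were replicates 15 and 24. Igkc, the kappa light chain, fell by 1.65 ± 0.368 (edgeR, adjusted p = 0.0331), from a median of 76.6 to one of 23.4 CPM. Ighg2b fell by 2.04 ± 0.401 (edgeR, adjusted p = 0.0155), from 6.24 to 1.23 CPM. In contrast Ighm, which naive B cells also express, was at -0.14, and Pigr, the epithelial receptor that carries IgA into the lumen, was at 0.21. Neither was called. Of the 8 tested genes in the list of constant regions, which also holds Pigr, 3 fell (37.5%, against 0.278% of all genes tested). The median of that list was -0.79. Without wild-type replicate 1 the edgeR adjusted p was 0.0995 for both Igha and Igkc and 0.105 for Jchain, and without knockout replicate 11 it was 0.0641, 0.0603 and 0.0699.

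Of 214 heavy and light chain variable segments in the files, only 29 passed the filter on low counts. Of these, 10 fell (34.5%, against 0.278% of all genes tested). The segments that passed had to be high in some samples, so the list's median of -2.04 describes those segments alone. Igkv4-72 changed most, at 0 to 1.99 CPM in the knockouts (median 0.0977, below the level of 3 counts) and 0.101 to 12.2 CPM in the wild types (median 1.31), with a change of -3.53 ± 0.549 (edgeR, adjusted p = 0.00128). Ighv3-6 was at -3.15, Ighv1-22 at -2.85, Ighv1-78 at -2.69, Igkv6-15 at -2.40, Igkv12-44 at -2.37, Igkv1-117 at -2.25 and Igkv5-43 at -2.13, all called. Segments of this kind share long stretches of sequence, and the assignment of reads between them is uncertain. The summed level of all 214 was 16.1 to 378 CPM in the knockouts (median 45.8) and 12.4 to 741 CPM in the wild types (median 120).

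Called genes outside these lists were mostly known from lymphocytes. H2-Eb2, an MHC class II chain of B cells, fell by 1.07 ± 0.204 (edgeR, adjusted p = 0.0149), Gpr174, a lysophosphatidylserine receptor of lymphocytes, by 1.06 ± 0.210 (edgeR, adjusted p = 0.0155), and Gimap3, a GTPase of lymphocyte survival, by 0.75 ± 0.141 (edgeR, adjusted p = 0.0120). In the Gimap family, assembled after values were seen, 2 of 9 fell, against 0.278% of all genes tested, and all 9 had negative estimates, against 8596 of 17648. The call of Gimap6 was kept in 15 of 42 fits with a library left out. Slamf6, Lax1, Map4k1, Hvcn1, Acap1, Rasal3 and Clec2i, each between -0.46 and -0.80, were also among the called genes and were named after their values were seen.

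These calls were not independent of the level of B-cell transcripts. With log2(CPM + 1) of Ms4a1 added as a covariate, none of the 17648 genes was called in edgeR (0.0%), with 517 at an unadjusted p below 0.05. The median of the genes that fell went from -0.95 to -0.22, and that of the B-cell identity list from -0.78 to -0.01. Ms4a1 is itself a B-cell gene that was lower in the knockouts, so the added term takes up part of the genotype effect. With the term added, estimates were 1.94 for Ang4, -0.62 for Cr2, -0.37 for Irf4, -0.23 for Dock2, -2.75 for Igkv4-72, -1.73 for Igha and -1.41 for Ighg2b.

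In the Dock2, Elmo and Rac module 2 of 20 genes fell (10.0%, against 0.278% of all genes tested), Dock2 and Arhgdib, a leukocyte inhibitor of small GTPases (-0.33 ± 0.072; edgeR, adjusted p = 0.0224, with an adjusted p of up to 0.0691 when a library was left out). Dock2 is the targeted gene, so its part in this share and in the next count comes from the design. At an unadjusted p below 0.05 there were 6 of the 20, all lower, against 2.94% of all genes tested, with Cyfip2 at -0.27, Dock10 at -0.18 and Dock8 at -0.10 besides the called genes and Rac2. Rac2, the leukocyte Rac, was at -0.31 (edgeR, adjusted p = 0.344), whereas Elmo1, the partner that Dock2 binds, was at -0.02 and the ubiquitous Rac1 at 0.04. Of 20 chemotaxis receptors 1 fell (5.0%, against 0.278% of all genes tested). At an unadjusted p below 0.05 there were 9, 7 lower and 2 higher, against 2.94% lower and 2.57% higher of all genes. Cxcr5, which draws B cells into follicles, was at 1.02 to 6.39 CPM in the knockouts (median 3.09) and 2.09 to 10.7 CPM in the wild types (median 5.51), and fell by 0.75 ± 0.156 (edgeR, adjusted p = 0.0206). Ccr6, which guides B cells to the follicle dome, was at -0.78 ± 0.193 (edgeR, adjusted p = 0.0638), with all 18 knockouts below the wild-type median. Within 10 Mb of Dock2 on chromosome 11, 86 other genes were tested and none was called in edgeR, with 9 at an unadjusted p below 0.05. The nearest to the threshold was Ebf1, a B-cell factor (-0.29; edgeR, adjusted p = 0.112).

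Other immune compartments gave no calls. Of 28 T-cell genes none was called in edgeR, but 23 had negative estimates, against 8596 of 17648 over all genes. The median was -0.17. An unadjusted p below 0.05 was found for 6, all lower, against 2.94% lower of all genes tested. Without the high-Krt1 libraries and terms 1 T-cell gene was called lower. Cd28 was at -0.64 (edgeR, adjusted p = 0.135) and Cd3e, at 0.475 to 4.52 CPM in the knockouts and 0.757 to 3.13 CPM in the wild types, was at -0.26. Germinal centre genes had a median of 0.04 (0 of 11 called, 1 lower at an unadjusted p below 0.05). Follicle stroma and chemokine genes were at -0.11 (0 of 13, and 4, all lower). Macrophage and dendritic cell genes were at 0.04 (0 of 30, and 3, 2 lower and 1 higher). Intraepithelial and cytotoxic genes were at 0.01 (0 of 9, and 1 higher). The neutrophil and acute inflammation list, without the 4 genes of the score, had a median of 0.11 (0 of 17, and 3, all higher).

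Genes of the interferon-γ response leaned upward without passing the threshold. Of 39 tested, 38 had positive estimates, against 9052 of 17648 over all genes. An unadjusted p below 0.05 was found for 21, all higher, against 2.57% higher of all genes tested. The median was 0.35, and none was called in edgeR. Cxcl9, an interferon-γ-induced chemokine, was at 0.196 to 72.0 CPM in the knockouts (median 2.13) and 0.392 to 7.50 CPM in the wild types (median 1.02), a difference of 1.44 ± 0.463 (edgeR, adjusted p = 0.311). Part of this rested on 1 library. The summed level of the list was 8640 CPM in knockout replicate 3 and at most 3950 CPM elsewhere, and without that library the median was 0.14, 33 of 39 estimates were still positive and 2 members had an unadjusted p below 0.05. Nos2, inducible nitric oxide synthase, was at 629 CPM in the same library, and its difference of 1.39 ± 0.387 (edgeR, adjusted p = 0.135) became 0.85 (edgeR, adjusted p = 0.432) without it.

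**Figure D3:**
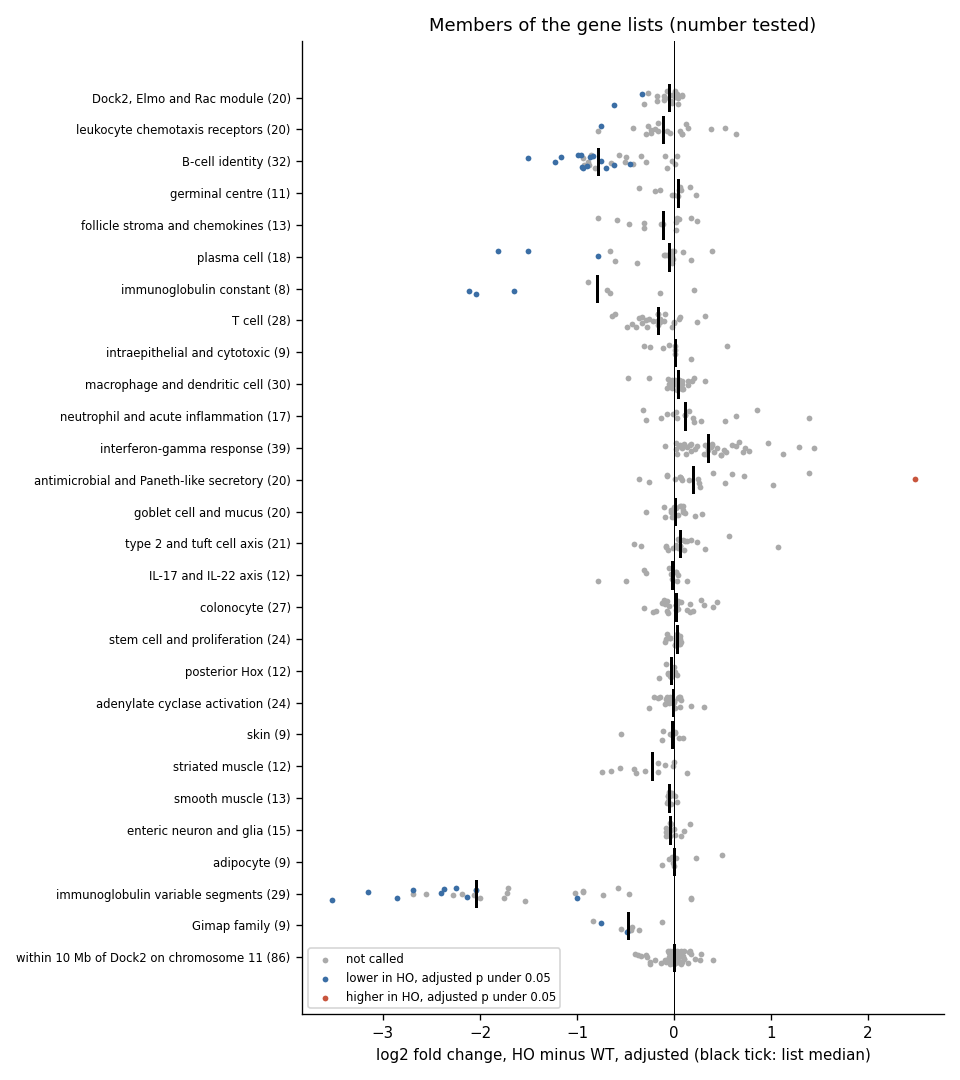
Log2 fold change (knockout minus wild type, adjusted) of every tested member of 28 gene lists, with the number tested in brackets, blue for genes lower and red for genes higher at an adjusted p below 0.05, grey for the rest, and a black tick at the list's median. Most called genes lie in the B-cell and immunoglobulin lists, and Ang4 (2.48) is the 1 called gene to the right of 0.

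Epithelial and stromal lists gave Ang4 as their 1 called gene. Ang4 was the 1 of 20 antimicrobial genes that rose (5.0%, against 0.017% of all genes tested), and the median of that list was 0.20. At an unadjusted p below 0.05 there were 7 of the 20, all higher, against 2.57% higher of all genes tested. Duox2, an epithelial oxidase, was at 0.60 (edgeR, adjusted p = 0.222), Duoxa2, its maturation factor, at 0.72 (edgeR, adjusted p = 0.286) and Sprr2a3 at 0.27 (edgeR, adjusted p = 0.642). Medians were 0.01 for goblet cell genes, 0.06 for the type 2 and tuft cell axis, -0.02 for the IL-17 and IL-22 axis, 0.02 for colonocyte, 0.03 for stem cell and proliferation, -0.03 for posterior Hox, -0.01 for adenylate cyclase activation, -0.05 for smooth muscle, -0.04 for enteric neuron and glia and 0.00 for adipocyte genes, with none called in edgeR. In these 10 lists together, the genes at an unadjusted p below 0.05 numbered between 0 and 3 each. Summed skin genes ran from 13.3 to 13200 CPM in the knockouts and 14.8 to 4130 CPM in the wild types, and summed striated muscle genes from 40.4 to 3230 and 40.4 to 31100 CPM. With Krt1 and Acta1 in the model the medians of these 2 lists were -0.02 and -0.23.

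RefSeq promoter windows (GRCm38, 250 bases before to 50 after the gene start, gene strand) were available for 28 of the 52 called genes and for 12233 of all genes tested. The octamer ATTTGCAT, read on both strands and known as the site of the B-cell cofactor partner Pou2f2, was in 0 of 28 called promoters and in 1.65% of those of all tested genes. At so low a share 0 of 28 does not set the called genes apart. Called genes without a window were not read. The ETS-family core GGAAGT, read on both strands, was in 11 of 28 (39.3%) and in 31.0% of those of all tested genes, so its share was near the background. Windows are shown for Ang4, Cr2 and Dock2, chosen because they hold the core, which is in capitals, while that of Irf4 does not. Counted from the gene start, with the base before it as -1, the core begins at -208 in Ang4 (chr14:51773541-51773840, minus strand), -130 in Cr2 (chr1:195176670-195176969, minus strand, where it reads ACTTCC) and -3 in Dock2 (chr11:34783856-34784155, minus strand). The motif letters are a description and not a binding site.
Ang4: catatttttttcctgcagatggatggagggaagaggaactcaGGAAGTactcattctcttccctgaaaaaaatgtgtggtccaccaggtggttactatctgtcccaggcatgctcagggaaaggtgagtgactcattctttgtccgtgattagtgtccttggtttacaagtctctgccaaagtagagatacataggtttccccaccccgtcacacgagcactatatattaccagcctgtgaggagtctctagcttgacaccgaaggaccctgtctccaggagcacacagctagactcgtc
Cr2: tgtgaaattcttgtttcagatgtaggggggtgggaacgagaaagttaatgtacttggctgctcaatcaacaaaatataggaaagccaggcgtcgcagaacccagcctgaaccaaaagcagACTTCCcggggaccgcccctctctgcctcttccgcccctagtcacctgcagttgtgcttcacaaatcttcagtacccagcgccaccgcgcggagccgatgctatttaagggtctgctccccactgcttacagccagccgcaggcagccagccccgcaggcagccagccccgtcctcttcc
Dock2: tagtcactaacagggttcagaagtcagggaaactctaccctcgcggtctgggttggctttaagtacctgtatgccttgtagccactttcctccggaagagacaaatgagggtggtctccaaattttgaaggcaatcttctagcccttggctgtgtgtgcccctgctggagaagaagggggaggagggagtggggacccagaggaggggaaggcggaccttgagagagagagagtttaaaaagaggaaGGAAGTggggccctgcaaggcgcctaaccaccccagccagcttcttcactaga

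Far more genes varied with the inflammation score than were called for genotype. The score is made of 4 transcripts of the same libraries, so its slopes are associations, and their cause was not tested. Over the same samples 5111 genes rose (29.0%) and 5152 fell (29.2%) with the score. Of the 52 genes called for genotype, 34 also moved with the score, 23 up and 11 down. Dock2, Bank1 and Cxcr5 were among those higher at a higher score (0.21, 0.15 and 0.16 log2 per unit; edgeR, adjusted p = 1.53e-06, 0.00358 and 0.00105). Igha, Jchain and Igkc were among those lower (-0.45, -0.48 and -0.34 log2 per unit; edgeR, adjusted p = 0.00306, 0.000704 and 0.00479). For Ang4, Cr2 and Irf4 the slopes were 0.09, 0.10 and -0.03 and did not pass the threshold.

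Whether the genotype effect itself changed with inflammation was tested by an interaction term. In edgeR 1 of 17648 genes was called (0.00567%), with 1446 at an unadjusted p below 0.05. It was Cpb1, pancreatic carboxypeptidase B, with a slope 1.34 ± 0.243 log2 per unit of score steeper in the knockouts (adjusted p = 0.0452). The value rested on knockout replicate 3, at 84.2 CPM of Cpb1 and 61.0 CPM of the trypsinogen Prss2, whereas no other library exceeded 1.20 CPM of Cpb1. Without it the Cpb1 term was 0.02 (edgeR, adjusted p = 0.991). With single libraries left out, 0 genes were called in 25 fits and 1 in 2 fits, and the count was 2 in 9 (without knockout replicate 2, 5, 6, 7, 9, 12, 14 or 18 or wild-type replicate 15), 3 in 3 (without knockout replicate 11, 15 or 16), 4 without knockout replicate 1, 6 without knockout replicate 13 and 28 without knockout replicate 8. Interaction terms were 0.18 ± 0.063 for Dock2, -0.18 ± 0.259 for Ang4, 0.06 ± 0.142 for Cr2 and 0.21 ± 0.090 for Irf4, with adjusted p of 0.440, 0.909, 0.948 and 0.535 in edgeR. A change of the genotype effect with inflammation was therefore not detected for these genes, and the range of scores among the knockouts ended at 5.23.

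**Figure D4:**
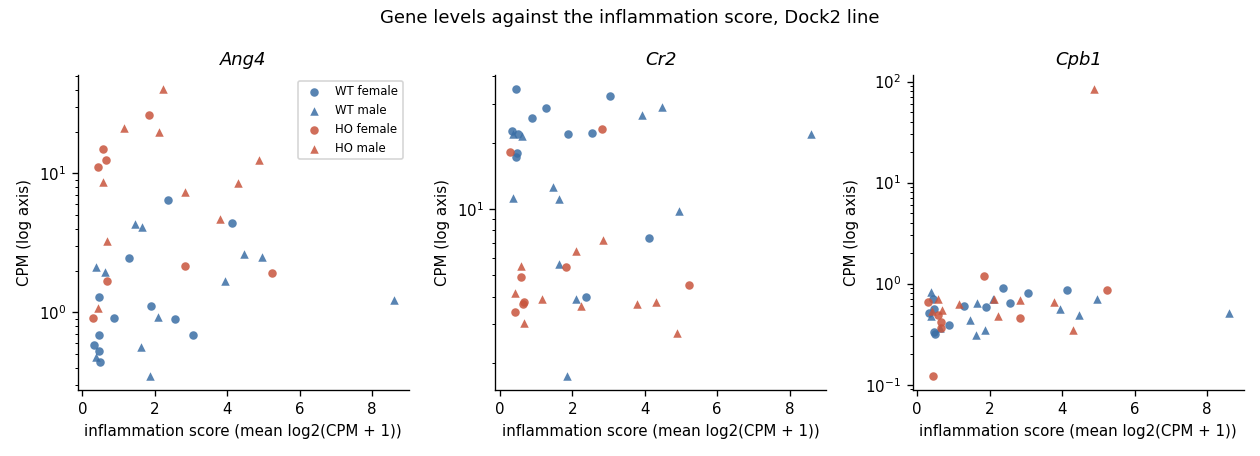
CPM (log axes) of Ang4, Cr2 and Cpb1 against the inflammation score of each sample, with colour for genotype and symbol for sex. Knockouts lie above most wild types for Ang4 and below most for Cr2 across the scores they share, and 1 knockout male stands alone at 84.2 CPM of Cpb1.

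The genotype effect was also compared between the sexes. No gene was called for the interaction in edgeR (0.0%), with 494 at an unadjusted p below 0.05. The smallest p-values belonged to 1 kappa variable segment (-5.77 ± 1.20, male minus female effect; edgeR, adjusted p = 0.402), and Ms4a4c (1.29 ± 0.336; edgeR, adjusted p = 1.00). Igha was at -3.18 in males alone and -1.32 in females alone, with an unadjusted p of 0.0303 for the difference in edgeR. Without the score, Krt1 and Acta1 terms 35 of 17648 genes were called, and 11 of these were in the striated muscle list. Summed striated muscle genes were highest in wild-type male replicates 7, 8 and 9, at 31100, 27400 and 12800 CPM. They reached at most 3230 CPM in the knockouts. The part of these male libraries in the 35 calls was not tested.

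The same adjusted fit was made in the Hem1 (Nckap1l) line, 31 samples, and the Gpsm3 line, 40 samples, which have their own wild types. Hem1 is a subunit of the WAVE complex that acts downstream of Rac, and Gpsm3 modulates G-protein signalling. The Ang4 difference was 2.48 in the Dock2 line, 6.36 ± 1.25 in the Hem1 line (edgeR, adjusted p = 0.0222) and 3.17 ± 0.887 in the Gpsm3 line (edgeR, adjusted p = 0.977). In the Gpsm3 line the knockout median of 1.45 CPM (0.17 to 495) lay below the wild-type median of 1.68 CPM (0.25 to 38.5), and in the Hem1 line the medians were 4.54 CPM (0.113 to 850.0) and 0.62 CPM (0 to 4.94). It was the 1 gene called in both the Dock2 and the Hem1 fit, of 52 and 51. Cr2 was at -1.51, -1.56 and 0.24 in the 3 lines, Irf4 at -0.78, -0.80 and 0.38, and Igha at -2.11, -2.50 and 0.94. In the Hem1 line the SEs were 0.636, 0.331 and 0.866, and none of the 3 genes was called (edgeR, adjusted p = 0.352, 0.357 and 0.241). In the Gpsm3 line none was called either (edgeR, adjusted p = 0.977 for each).

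Against the mean of the other lines, 1 of 19394 genes was called in edgeR (0.00516%), Skint1, with 607 at an unadjusted p below 0.05. Against the Gpsm3 line alone 31 of 18460 genes were called, 17 of them among the 52 of the Dock2 line. The contrast uses the same Dock2-line samples that picked the 52. The overlap, and the values below for genes of the 52, are therefore partly built in and are no check of those calls. Cr2 differed by -1.72 ± 0.351 (edgeR, adjusted p = 0.0105), Irf4 by -1.13 ± 0.250 (edgeR, adjusted p = 0.0186), Igha by -3.05 ± 0.667 (edgeR, adjusted p = 0.0186) and Jchain by -2.72 ± 0.597 (edgeR, adjusted p = 0.0186). Against the Hem1 line alone 3 of 18916 genes were called, none of them among the 52. The difference was -0.11 ± 0.550 for Cr2 and -3.63 ± 1.08 for Ang4 (edgeR, adjusted p = 0.981 and 0.344). The Gpsm3 samples were all males, and tissue of the Hem1 line was taken on day 12 after 7 days of water and a weaker DSS solution, which cannot be told apart from the line.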

How the data were processed

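Distal colon of 42 mice of the Dock2 line was profiled by ribosomal RNA-depleted, stranded RNA-seq. Per the submitters' processing notes the tools were STAR and featureCounts (Subread) on build mm10, with versions and strand setting not given in the sources used here. The authors deposited raw, unnormalized counts for 39179 Ensembl genes. GENCODE vM21, on the same build, named 37693 of them (96.2%). The Dok3 line was not used.

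Counts were filtered with filterByExpr by genotype, scaled by TMM, and fitted in edgeR 4.0.16 (R 4.3.3; quasi-likelihood F test) on genotype plus sex, inflammation score, Krt1 and Acta1. Interaction terms were genotype by score and genotype by sex. P-values were adjusted by Benjamini-Hochberg over all genes. For the score and for levels of 1 gene, 100000 two-sided permutations were drawn, or all of them where a group was under 10 (scipy 1.17.1, Python 3.11.15). CPM divides by the file total. Other tools tried were limma-voom 3.58.1, which the study used, and DESeq2 1.42.0. Further alternatives were other scalings, filters, covariates and thresholds, and leaving out each library. The fit was tested on simulated data. Groups came from the labels, replicates are numbered in accession order, and each is a separate sample, so that p-values measure the spread between samples. Samples of a group differed by more than counting noise (lowest chi-square per gene 5.01). Intervals of counting error cover counting only.

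Named genes are Dock2, Ang4, Cr2 and Irf4, up to 10 with the largest rise and 10 with the largest fall among called genes whose average log2 CPM reached 0, up to 5 per list with the smallest p, and up to 6 called, or else the 2 with the smallest p, in each interaction and line contrast. The members and the 25 lists were chosen with earlier results of these data known, and the lists of variable segments, Gimap genes, pancreatic genes and neighbours of Dock2 were added after the values were seen. Some genes that these rules name are not reported here.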

Additional observations from a re-analysis of the deposited data

Results flagged for a closer look

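Skint1, a gene of skin epithelium, was singled out because its genotype effect in the Dock2 line differed from the mean of the Hem1 and Gpsm3 lines by -1.73 ± 0.333 on the log2 scale (edgeR quasi-likelihood test, adjusted p = 0.0201). In the Dock2 line it had more than 3 counts in 1 knockout and 4 wild types, the same 5 libraries with a Krt1 level of 10 CPM or more, and was too low there to be tested within the line. It had more than 3 counts in 7 knockouts and 8 wild types of the Hem1 line and in 2 knockouts and 1 wild type of the Gpsm3 line, all with a Krt1 level of 10 CPM or more. The part of skin RNA in the difference was not tested.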

How the results depend on the processing

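No paired analysis was possible because the labels give no replicate numbers that groups share. The 52 genes called for genotype became 99 with DESeq2 (all 52 included), 31 with limma-voom (28 included), 93 with a filter of 1 count, 22 with at least 10 counts in every sample, 7 without Krt1 and Acta1 terms, 13 with score alone, 6 with sex alone, 4 in males, 8 in females, 82 without the high-Krt1 libraries, 5 at a threshold of 0.01 and 0 with Ms4a1 added. Added after seeing the data were leaving out the high-Krt1 libraries with no Krt1 and Acta1 terms (103) and leaving them out with wild-type replicate 13 (85). Leaving out each library gave 15 to 91. The 1 gene called for the score interaction became 5 with DESeq2 or a score of 8 genes, 4 with a squared score or without high-Krt1 libraries, 3 without Krt1 and Acta1 terms, 2 without sex, 22 with a filter of 1 count, and 0 with limma-voom, at least 10 counts in every sample, a threshold of 0.01, males, females, or without high-Krt1 libraries and wild-type replicate 13. Leaving out each library gave 0 to 28. The sex interaction went from 0 to 35 genes without the score, Krt1 and Acta1 terms. The line contrast went from 1 gene to 31 against the Gpsm3 line, 3 against the Hem1 line and 5 with limma-voom. Called members of the main lists numbered 23, and 15 with limma-voom, 3 with sex alone and 0 with Ms4a1 added. In females the score, Krt1 and Acta1 differences turned to 0.04, 0.61 and 0.53 (exact permutation tests, p = 0.956, 0.634 and 0.450). RLE scaling left 52 calls and the file total alone gave 62. Causes were not tested. No gene named under the rule for the genotype fit, where called, reversed its sign under any alternative. Depth limits the variable segments, such as Igkv4-72, whose knockout median lay below 3 counts.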
